A study of Rattus norvegicus with 9 samples.

Results

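Spleens of rats given celecoxib on top of thioacetamide (TAA) were compared with spleens of rats given TAA alone, gene by gene, in 6 of the 9 RNA-seq libraries of the study. The comparison covers every gene that passed a standard filter on low counts in these 6 libraries, which was 15386 of 34408 gene entries. Both groups are wild-type (WT) rats that received TAA by intraperitoneal injection, with an injection every 3 days, at 200 mg/kg over the first 8 weeks and at 100 mg/kg over another 8 weeks. The TAA+celecoxib group also received celecoxib at 20 mg/kg/day during the second of those periods, so the groups differ in the drug and share the TAA course. Strain, sex and age are not given in the labels used here, and the labels do not say that each library is a separate animal. The p-values therefore measure differences against the spread between these libraries. Libraries are called TAA 1 to 3 and celecoxib 1 to 3 after their numbers in the labels, which do not say that a number pairs libraries across groups.

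TAA is a liver toxin used in rodents to produce cirrhosis, in which high portal pressure enlarges the spleen. Celecoxib inhibits cyclooxygenase 2 (Ptgs2), the inducible enzyme that turns arachidonic acid into the precursor of prostaglandins and thromboxane, while cyclooxygenase 1 (Ptgs1) is the form that platelets and many resting cells use. The spleen combines white pulp, where T and B cells gather around stroma that makes chemokines, with red pulp, where macrophages clear old erythrocytes and recycle their iron. The series title names splenomegaly of cirrhosis as the setting, and the comparison asks which spleen transcripts differed when the drug was added.

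Levels are given as CPM, which scales each library's counts to the same total, and a log2 fold change is positive where the celecoxib libraries were higher. The edgeR quasi-likelihood test called 0 of 15386 genes (0%) at a Benjamini-Hochberg adjusted p under 0.05, and its smallest adjusted p was 0.918. At an unadjusted p under 0.05, edgeR counted 693 genes, 4.50% of those tested, where 769 would be counted by chance if genes were independent. DESeq2, run as an alternative without the low-count filter, called 28 of 17839 genes with an adjusted p, 4 higher and 24 lower with celecoxib. Of these 28, 4 were below the filter of the main test. In limma-voom 0 genes were called and 667 had an unadjusted p under 0.05. So no gene below is called by the main test, and each is described by its 6 values. The 3 celecoxib libraries lay above all 3 TAA libraries for 905 genes (5.88%) and below all 3 for 783 genes (5.09%), and these shares are the background for each list of genes. At an unadjusted p under 0.05 the shares were 2.13% higher and 2.37% lower, and 51.2% of all fitted values were positive (48.8% negative). An exact permutation test of 3 against 3 libraries cannot go below p = 0.1.

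Several libraries stood apart from the rest of their group. The 6 libraries held 14211789 to 19014761 counts. The leading principal component (37.3% of variance) placed celecoxib 1 at 72.2, while the other 5 libraries lay between -41.3 and 5.81. It had the lowest value of all 20 tested macrophage genes and of 11 of 12 endothelial genes. TAA 3 was highest for 14 of 18 neutrophil genes, and celecoxib 2 was highest for 18 of 19 erythroid genes. Some transcripts of neighbouring organs stood out in 1 library each. Alb, which encodes albumin of hepatocytes, was at 571 CPM in TAA 1 and at most 0.696 CPM elsewhere. The pancreatic enzyme gene Ctrb1 was at 26.1 CPM in TAA 2 and 0 in the other 5. Lists of adipocyte and mesothelium genes had counts in all 6 libraries, at summed levels of 458 to 1145 and 56.0 to 182 CPM. Of 7 adipocyte genes, 0 to 2 were without counts in TAA libraries and 3 in each celecoxib library. The labels carry both spleen and splenocytes; B cell (Cd79b, 337 to 605 CPM), macrophage (Csf1r, 428 to 1074 CPM) and stromal (Col1a1, 54.9 to 127 CPM) genes were all present. In bulk tissue, fewer cells of a type and less RNA per cell cannot be told apart.

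The genes with the smallest p and no overlap between groups included the CD8 co-receptor gene Cd8a on the higher side. On the lower side they included the gene of the matrix proteoglycan decorin. Cd8a encodes the alpha chain of the co-receptor by which cytotoxic T cells bind MHC class I. It was at 44.8, 54.7 and 37.8 CPM in TAA 1 to 3 and at 92.8, 91.0 and 90.7 CPM in celecoxib 1 to 3. The mean was 45.8 ± 8.46 CPM with TAA and 91.5 ± 1.13 CPM with celecoxib (SD, n = 3), and all TAA libraries were far below the celecoxib libraries. The log2 fold change was 1.0 ± 0.15 (SE), with an edgeR p of 3.55e-04 (adjusted p = 0.918) and a DESeq2 adjusted p of 9.92e-04. Control spleens, scaled together with the other 6 libraries, held 79.5, 80.8 and 96.2 CPM of Cd8a. Control values below have the same separate scaling and are given for some genes only. Controls are not part of the comparison, and differences from them were not tested.

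Dcn encodes decorin, a small proteoglycan that binds collagen fibrils and TGF-beta. It was at 6.71, 6.53 and 7.26 CPM with TAA and at 2.08, 1.67 and 2.41 CPM with celecoxib. The groups were well separated, and the log2 fold change was -1.73 ± 0.25 (SE), with an edgeR p of 2.54e-04 (adjusted p = 0.918) and a DESeq2 adjusted p of 3.82e-04. These levels are low, at 24 to 140 counts a library. Control spleens held 2.59, 2.84 and 2.85 CPM. The other tested proteoglycans of the family did not separate: Bgn, which encodes biglycan, was at 401 to 534 CPM with TAA and 439 to 512 CPM with celecoxib, and Lum, Fmod and Prelp overlapped too.

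**Figure D1:**
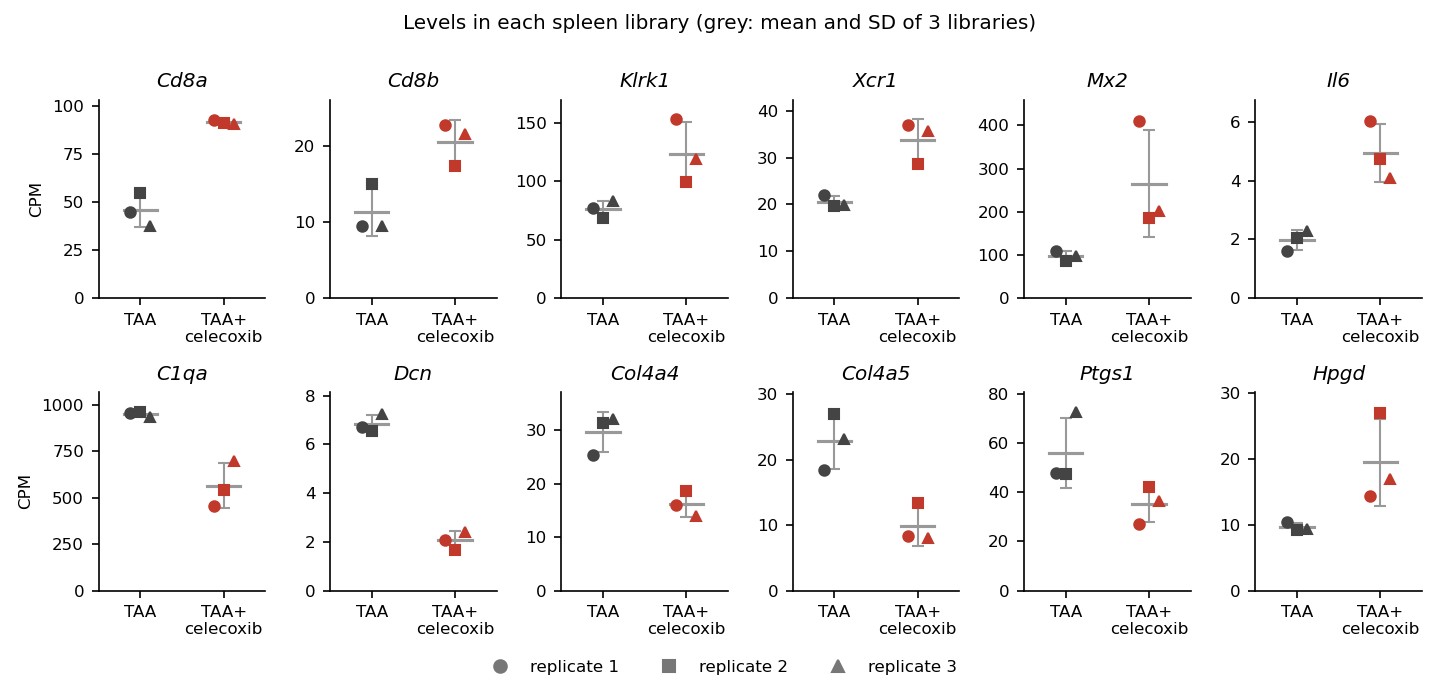
CPM of 12 genes in each library, with TAA libraries in black and TAA+celecoxib libraries in red, marker shapes for replicate numbers, and grey lines for the mean and SD of 3 libraries. In every panel the groups do not overlap, as in Cd8a (37.8 to 54.7 against 90.7 to 92.8 CPM); the genes were picked for that, so the plot shows the spread within groups and does not count how often it happens.

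The 15 genes with the smallest p on the higher side, among those without overlap, included Cd8a, Mx2 and the 5 immune genes described next. Klrd1, the CD94 chain of an inhibitory and activating receptor of NK and CD8 T cells, was at 11.8 to 13.6 CPM with TAA and 19 to 21.2 CPM with celecoxib (log2 0.66 ± 0.15 SE). Themis, a signalling protein of T cell selection, was at 6.95 to 7.41 against 10.6 to 13.9 CPM (log2 0.83 ± 0.19 SE). Xcr1, the chemokine receptor of dendritic cells that cross-present antigen to CD8 T cells, was at 22.0, 19.6 and 19.8 CPM with TAA and 36.9, 28.6 and 35.7 CPM with celecoxib (log2 0.72 ± 0.15 SE). The list of dendritic cell genes did not lean that way: 4 of 10 were higher, the median was -0.03, and Xcr1 was separated on the higher and Zbtb46 on the lower side. Tlr3, a sensor of double-stranded RNA, was at 33.5 to 38.2 against 49.6 to 58.3 CPM. Il6, the gene of the cytokine interleukin 6, was at 1.62, 2.04 and 2.28 CPM with TAA and 6.04, 4.73 and 4.09 CPM with celecoxib, on 23 to 96 counts a library. The others named by the rule were Cd8a, Mx2, Usp40, Parm1, Spo11, LOC300249, Cep295 and 3 models without a gene name in common use, AABR07025140.1, AC095947.3 and AABR07017902.1.

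On the lower side, the 15 genes with the smallest p held enzymes, matrix genes and unnamed models. Ldhb, the heart-type subunit of lactate dehydrogenase, was at 81.0, 89.1 and 65.6 against 41.9, 39.9 and 45.5 CPM (log2 -0.89 ± 0.15 SE, DESeq2 adjusted p = 0.00583). The groups did not overlap, and control spleens held 36.4 to 57.1 CPM. Itih1, which encodes a heavy chain of a hyaluronan-binding plasma protein, was at 7.31 to 9.53 against 2.01 to 3.90 CPM.

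The smallest DESeq2 adjusted p, 2.39e-05, belonged to AABR07051532.2, a protein-coding model at chr3:16413080-16413632 in the coordinates of the files, whose build could not be settled. It was at 180, 200 and 186 CPM with TAA and at 89.1, 83.5 and 56.8 CPM with celecoxib (log2 -1.30 ± 0.19 SE). Control libraries ranged from 92.4 to 234 CPM, so they reached past both groups. AABR07051533.1, a neighbouring model at chr3:16495748-16496344, was at 10.5 to 39.8 against 3.21 to 6.66 CPM. The smallest edgeR p, 1.12e-04, belonged to LOC103692976, which rests on 23, 30 and 40 counts with TAA against 3, 3 and 5 with celecoxib. The files do not say what these models encode, and reads shared with near-identical copies could move their counts.

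Interferon response genes leaned higher. The list holds genes that cells switch on when type I interferon binds its receptor, whose products sense or block viruses. It also holds the receptor chains Ifnar1 and Ifnar2 and sensors such as Tlr7 and Tlr9, so it is not a list of induced genes only. Of 50 tested genes, 44 had a positive log2 fold change, with a median of 0.53 beside 0.01 over all genes tested. In 23 of the 50 the celecoxib libraries lay above all TAA libraries, beside 5.88% of all genes, and in 1 they lay below. No member passed the adjusted threshold in edgeR, and 23 had an unadjusted p under 0.05, all of them higher.

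The promoters of these genes often carry a shared element, and some are shown here because these genes had higher values together. The interferon-stimulated response element, which factors activated by interferon bind, has the core GAAANNGAAA, or TTTCNNTTTC on the other strand, where N is any base. It was searched on both strands in the 250 bases before each RefSeq gene start of the build GRCr8, counting overlapping matches. It was in 17 of 37 tested interferon genes with a promoter entry (45.9%), beside 902 of 27457 promoters of the same length in the table (3.29%) and 279 of 10273 tested genes (2.72%). The antiviral effectors held it in 14 of 20 (70.0%). It was in 7 of 14 members whose celecoxib libraries all lay above the TAA libraries (50.0%) and in 10 of 23 others (43.5%), among them Bst2, described below. A match is a description of letters and not a measured binding site. The stretches below run 5′ to 3′ along each gene's own strand and end before the gene start, with the matches in capitals, for genes whose celecoxib libraries all lay above the TAA libraries.
Oas1a, chr12:41330386-41330465, plus strand: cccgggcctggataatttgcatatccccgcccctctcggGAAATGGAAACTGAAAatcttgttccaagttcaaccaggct
Samd9, chr4:32138959-32139020, minus strand: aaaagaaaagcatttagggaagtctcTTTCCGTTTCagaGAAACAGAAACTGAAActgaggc
Ifi44, chr2:243303841-243303911, minus strand: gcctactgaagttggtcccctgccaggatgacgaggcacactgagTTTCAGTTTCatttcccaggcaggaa
Ifit3, chr1:241527237-241527325, plus strand: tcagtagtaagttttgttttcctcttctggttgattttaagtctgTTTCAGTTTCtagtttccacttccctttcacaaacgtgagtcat
Parp14, chr11:78408013-78408112, plus strand: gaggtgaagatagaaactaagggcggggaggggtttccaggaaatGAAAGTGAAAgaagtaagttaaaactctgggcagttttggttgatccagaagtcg
Oas1a held 2 overlapping matches and Samd9 held 3, 2 of them overlapping, while the other 3 stretches held 1 each.

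Sensors of foreign nucleic acid were higher in 8 of 8 tested genes (median log2 0.51), and 4 did not overlap. Zbp1, a sensor of Z-form nucleic acid that can start cell death, was at 27.0, 28.0 and 24.3 CPM with TAA and at 104, 48.8 and 43.6 CPM with celecoxib (log2 1.31 ± 0.34 SE). Dhx58, which regulates the RNA sensors of the RIG-I family, was at 28.5 to 31.1 against 37.4 to 86.2 CPM. The toll-like receptors of endosomes split: Tlr3 did not overlap, whereas Tlr7 and Tlr9 had log2 fold changes of 0.05 and 0.07.

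Transcription factors and signalling genes had the smallest median of the 4 roles, 0.24, with 6 of 7 higher. Irf9, a factor of the interferon response, did not overlap (81.5 to 87.0 against 92.2 to 116 CPM). Irf7, the factor that amplifies interferon production, overlapped because TAA 3, at 410 CPM, exceeded celecoxib 3, at 356 CPM. The receptor chains Ifnar1 and Ifnar2 were at -0.05 and 0.02.

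Antiviral effectors had the largest median of the 4 roles, 0.65, with 22 of 26 higher. Mx2, a dynamin-like GTPase that traps viral components, was at 109, 87.1 and 97.3 CPM with TAA and at 409, 186 and 201 CPM with celecoxib. Celecoxib 1 was highest by far and all 3 celecoxib libraries were above the TAA libraries. The log2 fold change was 1.44 ± 0.32 (SE), with an edgeR p of 0.00281 (adjusted p = 0.918) and a DESeq2 adjusted p of 0.0111. Control spleens held 206, 191 and 131 CPM of Mx2. Mx1, its paralogue, was at 224, 224 and 233 against 699, 398 and 304 CPM (log2 1.04 ± 0.30 SE). Samd9, Ifi44, Oas1a and Ifit3, whose promoters are printed above, had log2 fold changes of 0.98, 1.05, 1.12 and 0.80. Bst2, which tethers budding virions, was the 1 member that lay below in all 3 libraries, at 102 to 126 CPM against 78.2 to 101 CPM (log2 -0.25 ± 0.15 SE).

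Ifit1 and Rsad2, classic members of the same class, were set by celecoxib 2. Ifit1 was at 3.39, 18.4 and 4.61 CPM with TAA and at 0.252, 122 and 2.63 CPM with celecoxib, so its log2 fold change of 2.25 ± 1.75 (SE) rests on that library, and without it the value was -2.58. Rsad2, which encodes viperin, was at 209, 55.2 and 142 against 141, 376 and 57.1 CPM. In both genes the groups overlapped and celecoxib 1 was not high, although it was the highest library in 28 of the 50 interferon genes, beside 4392 of all 15386 genes.

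Genes of the ubiquitin-like modifier ISG15 and related enzymes were higher in 8 of 9. Isg15 was at 27.7, 19.6 and 22.3 CPM with TAA and at 94.6, 40.9 and 28.5 CPM with celecoxib (log2 1.24 ± 0.43 SE). Usp18, which removes ISG15 and damps receptor signalling, was at 26.2 to 33.3 against 38.1 to 99.8 CPM, and Herc6, a ligase for ISG15 in rodents, at 31.5 to 42.2 against 46.2 to 117 CPM. These 3 genes shared an order within the celecoxib group, highest in celecoxib 1 and lowest in celecoxib 3.

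**Figure D2:**
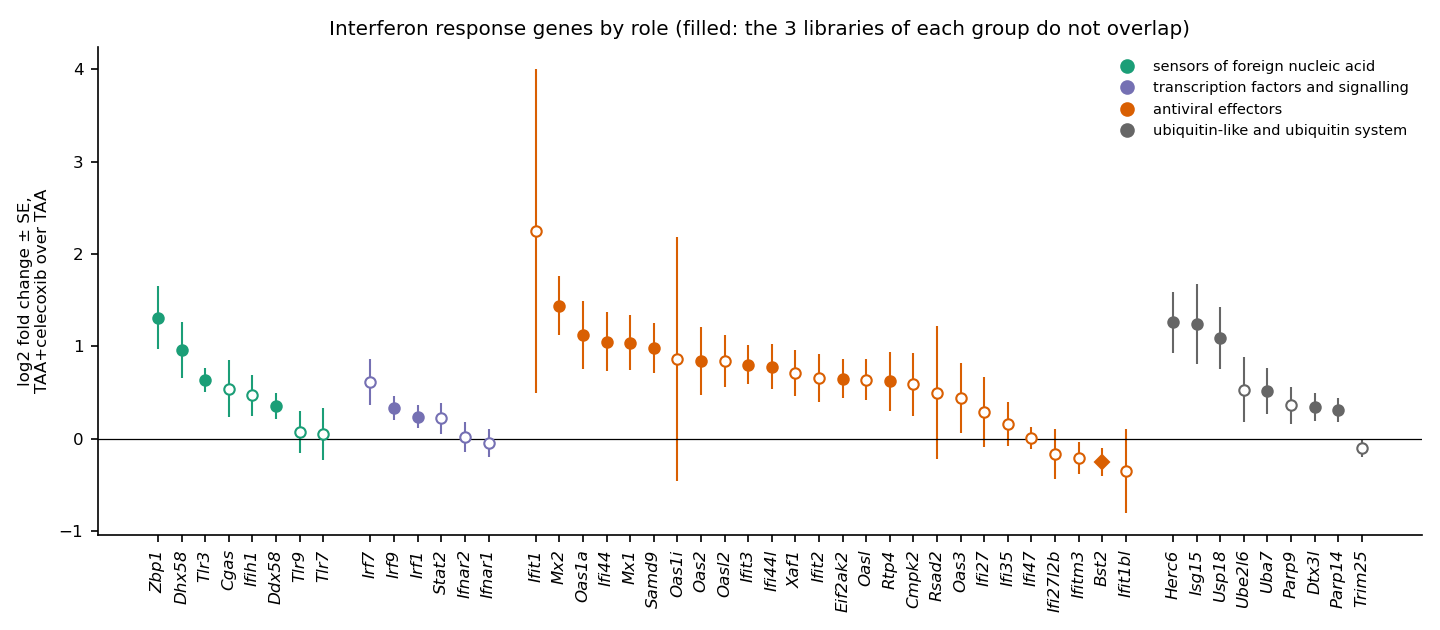
Log2 fold change with its SE (edgeR, 6 libraries) of tested interferon response genes by role, where filled markers are genes whose 3 celecoxib and 3 TAA libraries do not overlap and the diamond is the 1 such gene that was lower, Bst2. Most genes lie above 0 in every role, and Ifit1 and Oas1i have SEs larger than 1.

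The lean was also present without the library that stood apart. Without celecoxib 1, the median log2 was 0.43 and 43 of 50 genes were positive. Leaving out each of the 6 libraries in turn gave medians from 0.38, without celecoxib 2, to 0.74, without celecoxib 3. By score, the mean log2 CPM of the list, the celecoxib libraries were at 6.28, 6.29 and 5.75 and the TAA libraries at 5.62, 5.58 and 5.70, so celecoxib 3 lay only just above TAA 3.

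Genes induced mainly by interferon gamma leaned the same way, with 11 of 12 tested higher, a median log2 of 0.48 (0.29 without TAA 3) and 5 not overlapping. Gbp1, a guanylate binding protein that attacks intracellular pathogens, was at 0.612 to 0.881 against 1.46 to 2.45 CPM. Irgm was at 36.1 to 40.4 against 46.8 to 59.3 CPM. Cxcl10, a chemokine for activated T cells, overlapped (41.7 to 70.7 against 69.3 to 106 CPM), and Gbp2 was at -0.01. Ifng itself, at 0.0518 to 0.896 CPM, was under the count filter. MHC class I and loading genes were higher in 11 of 15 with a median of 0.22, which was 0.02 without TAA 3, with 8 of 15 higher. Several RT1 genes differed many-fold between libraries of 1 group, as in RT1-A2 (35.3 to 354 CPM with TAA). RT1 genes are near-identical copies whose counts could be split.

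T cell genes were higher in 25 of 28, with a median log2 of 0.57, and 9 did not overlap, all on the higher side. The 8 receptor complex genes were all positive (median 0.63). Cd8b, the beta chain of the CD8 co-receptor, was at 9.46, 15 and 9.54 CPM with TAA and at 22.8, 17.4 and 21.6 CPM with celecoxib (log2 0.86 ± 0.24 SE). Cd3e, a signalling chain of the T cell receptor, was at 56.1, 61.2 and 45.2 against 124, 63.1 and 100 CPM, so celecoxib 2 lay just above TAA 2. Gata3, Cd6 and Cd28 had values of the same shape, with celecoxib 2 lowest in its group.

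Cd4 did not share that lean. The co-receptor of helper T cells, which rat macrophages also carry, was at 183, 267 and 280 CPM with TAA and at 153, 239 and 224 CPM with celecoxib (log2 -0.24 ± 0.23 SE), and the groups overlapped. Il7r, the receptor chain for interleukin 7, was at -0.01. A test of Cd8a against Cd4 was not made.

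Of 10 tested receptors and regulators of NK and cytotoxic cells, 8 were higher (median 0.38) and 2, Klrd1 and Klrk1, did not overlap. Klrk1, the activating receptor NKG2D, was at 77.2, 68.5 and 82.9 against 153, 99.5 and 119 CPM (log2 0.70 ± 0.18 SE). Of 6 tested effector genes, 3 were higher (median -0.04) and none was separated, and the difference between the 2 kinds was not tested. Gzma, a granzyme, was at 11.1 to 17.4 against 7.03 to 11.4 CPM (log2 -0.70 ± 0.28 SE), and Prf1, perforin, had a log2 fold change of -0.12. All 10 tested regulatory and checkpoint genes had positive values (median 0.40, and 0.17 without celecoxib 1). Lag3, an inhibitory receptor of exhausted T cells, was 1 of the 2 that did not overlap (13.2 to 18.6 against 19.8 to 26.6 CPM), whereas Foxp3, the regulator of regulatory T cells, overlapped (4.66 to 7.07 against 5.29 to 12.1 CPM).

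The T cell values depended on single libraries. Celecoxib 1 was highest in 20 of 28 genes, beside 4392 of all 15386. TAA 3 was lowest in 19 of 28, beside 2545 of all 15386. Without celecoxib 1 the median was 0.39, and without TAA 3 it was 0.43. Without celecoxib 2 it was 0.80 and 24 of 28 genes did not overlap, beside 14.4% of all genes. B cell genes had a median of 0.12, with 12 of 14 positive and none separated. That median was -0.05 without celecoxib 1, with 6 of 14 positive, and 0.33 without celecoxib 2. Cxcl13, the chemokine that draws B cells into follicles, was at 80.1, 77.1 and 61.3 CPM with TAA and at 288, 95.5 and 132 CPM with celecoxib (log2 1.24 ± 0.40 SE), with no overlap. The chemokine genes of the T cell zone, Ccl19 and Ccl21, overlapped at 0.68 and 0.47.

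Macrophage genes were lower in 20 of 20 tested, with a median log2 of -0.62, and 6 did not overlap on the lower side, beside 5.09% of all genes. The clearest were the 3 chains of C1q, the complement protein that tags debris and dying cells for uptake and that macrophages make. C1qa was at 952, 960 and 935 CPM with TAA and at 456, 543 and 694 CPM with celecoxib (log2 -0.75 ± 0.18 SE). C1qb was at 818, 784 and 1366 against 308, 624 and 669 CPM (log2 -0.89 ± 0.35 SE). C1qc was at 1017, 1024 and 1375 against 295, 647 and 689 CPM (log2 -1.07 ± 0.33 SE). The 3 genes are neighbours on chromosome 5. Control spleens held 733 to 1080 CPM of C1qa.

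The 13 tested surface receptors had a median log2 of -0.58, which was -0.32 without celecoxib 1 and -0.31 without TAA 3. TAA 3 was highest in 14 of the 20 macrophage genes. Cd163, the scavenger receptor for haemoglobin, was at 730, 656 and 1405 against 125, 687 and 438 CPM, and Cd5l, a secreted macrophage protein, at 859, 638 and 792 against 135, 774 and 535 CPM. In both, celecoxib 2 lay inside the TAA range. Siglec1, the sialoadhesin of marginal macrophages, did not overlap (335 to 494 against 234 to 330 CPM). Csf1r, the receptor for their growth factor, did not overlap either (926 to 1074 against 428 to 911 CPM). Without celecoxib 1 the macrophage median was -0.36, and without TAA 3 it was -0.48. Without celecoxib 2 it was -0.84 and 14 of 20 genes did not overlap, beside 11.8% of all genes on the lower side in those 5 libraries. The 9 haem and iron recycling genes were all lower (median -0.50) and lowest in celecoxib 1 in every case, and without that library the median was -0.14. Of these, 1 did not overlap, Hmox1, the enzyme that opens the haem ring, at 1441 to 1531 against 478 to 1410 CPM.

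**Figure D3:**
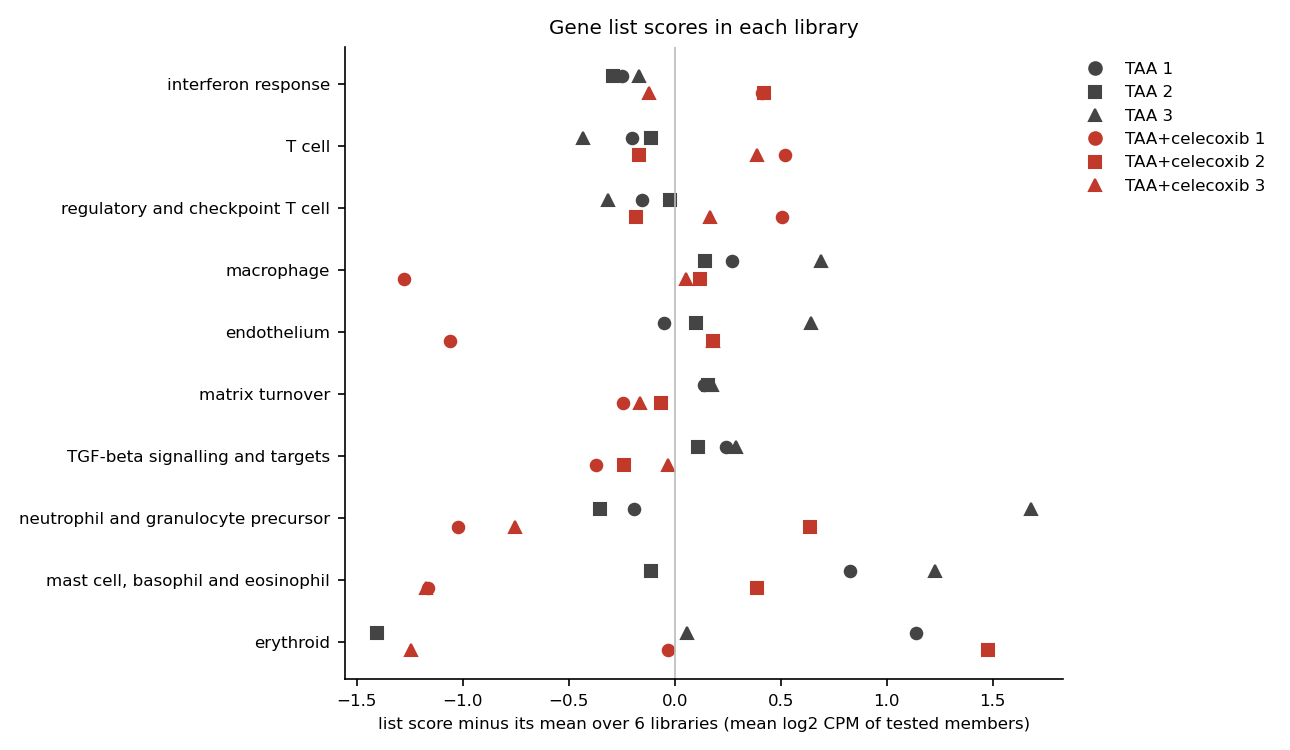
Scores of 10 gene lists (mean log2 CPM of tested members, less the mean over the 6 libraries) in each TAA (dark) and TAA+celecoxib (red) library. Interferon, macrophage, matrix turnover and TGF-beta scores do not overlap between groups. For macrophage genes celecoxib 2 lies only just below TAA 2 (7.47 against 7.49 before the mean is taken off). Celecoxib 1 is far below the rest for macrophage and endothelium. TAA 3 is highest for neutrophil genes, and celecoxib 2 and TAA 1 are highest for erythroid genes.

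Granulocyte genes gave large medians that rested on single libraries. Neutrophil and precursor genes had a median log2 of -1.02, with 16 of 18 lower and 1 not overlapping. S100a8, an abundant calcium-binding protein of neutrophils, was at 170, 122 and 647 CPM with TAA and at 95.6, 164 and 88.4 CPM with celecoxib. TAA 3 stood above every other library, and without it the list's median was -0.10. Mpo, the peroxidase of their granules, was high in TAA 3 (206 CPM) and celecoxib 2 (208 CPM) and between 26.5 and 48.8 CPM in the other 4. Without celecoxib 2 the list's median was -1.66 and 10 of 18 genes did not overlap, beside 11.8% of all genes on the lower side in those 5 libraries. The eosinophil genes Prg2 and Epx were also highest in TAA 3 (145 and 90.3 CPM) and next highest in celecoxib 2 (33.8 and 19.8 CPM).

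Mast cell genes differed from that pattern. Ms4a2, the beta chain of the IgE receptor, was at 4.24, 3.20 and 4.41 CPM with TAA and at 2.08, 1.88 and 1.46 CPM with celecoxib (log2 -1.13 ± 0.29 SE). Cpa3, a granule carboxypeptidase, was at 9.74, 3.74 and 6.12 against 3.21, 1.46 and 1.01 CPM, and Mcpt1, a granule chymase, at 16.0, 10.2 and 13.2 against 7.93, 2.78 and 2.02 CPM. These 3 were the separated genes among 6 tested mast cell genes, of which 4 were lower and 2 higher (median -0.74). Kit, the growth factor receptor of mast cells and of blood progenitors, was at 26.8 to 30.8 against 25.4 to 33.9 CPM. Megakaryocyte genes were lower in 10 of 11 (median -0.37, and -0.19 without celecoxib 1), and Itga2b, the platelet integrin chain, did not overlap (93.4 to 108 against 53.1 to 80.5 CPM).

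Erythroid genes varied more within groups than between them. Slc4a1, the band 3 anion exchanger of erythrocytes, was at 1604, 130 and 685 CPM with TAA and at 480, 1763 and 212 CPM with celecoxib (log2 0.02 ± 0.99 SE). The list's median of 0.19 ranged from -0.70 without celecoxib 2 to 1.01 without TAA 1, and none of 19 genes was separated. Cell cycle genes had a median of 0.13, which ran from -0.28 without celecoxib 2 to 0.40 without celecoxib 3, with none of 19 separated and celecoxib 2 highest in 16, as in Mki67, at 482, 198 and 262 against 288, 758 and 162 CPM.

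Fibrillar and basement membrane genes had a median log2 of -0.19, with 18 of 23 lower and 3 not overlapping. Col1a1 and Col3a1, the chains of the main fibrillar collagens, were at -0.03 and -0.08. Without celecoxib 1 the list's median was 0.04. The 3 separated genes of the list were Lamb1 and the type IV collagen chains Col4a1 and Col4a2. Col4a4 and Col4a5 were also named by the rule of smallest p, and Col4a3 and Col4a6 were added after their values were seen.

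Type IV collagen forms the sheet-like network of basement membranes from 6 chains, and in all 6 the celecoxib libraries lay below all TAA libraries. Col4a4 and Col4a5 were picked by a rule that required no overlap, and the set was completed with values known. The 6 of 6 therefore cannot be read against the 5.09% of all genes on the lower side. Col4a1 was at 640, 657 and 643 CPM with TAA and at 267, 562 and 543 CPM with celecoxib (log2 -0.50 ± 0.28 SE), with celecoxib 1 far below the others. Col4a4 was at 25.3, 31.4 and 32.2 against 16.1, 18.7 and 13.9 CPM (log2 -0.87 ± 0.18 SE, DESeq2 adjusted p = 0.0458). Col4a5 was at 18.4, 26.9 and 23.1 against 8.37, 13.4 and 7.95 CPM (log2 -1.20 ± 0.26 SE, DESeq2 adjusted p = 0.0458). The low values of Col4a4 and Col4a5 were shared by all 3 celecoxib libraries, unlike Col4a1. Control spleens held 16.9 to 26.2 CPM of Col4a4 and 14.2 to 28.6 CPM of Col4a5.

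Col4a2 was at 359 to 375 against 91.7 to 275 CPM, Col4a3 at 2.38 to 4.24 against 1.34 to 1.81 CPM, and Col4a6 at 0.881 to 1.69 against 0.728 to 0.766 CPM. The median over the 6 chains, a set completed with values known, was -0.83. It ranged from -0.99 to -0.76 when 1 library was left out. The chains are encoded in head-to-head pairs (Col4a1 with Col4a2, Col4a3 with Col4a4, Col4a5 with Col4a6), so they are not independent of each other. Laminin chains and nidogens, also looked up after these values were seen, did not follow: 4 of 10 were higher, the median was -0.08 and 1, Lamb1, did not overlap. Of 5 genes for collagen folding and crosslinking looked up with them, all were lower (median -0.46). In 3 the groups did not overlap, beside 5.09% of all genes on the lower side. Among these was Serpinh1, the collagen chaperone HSP47 (134 to 192 against 99.5 to 130 CPM). Celecoxib 1 was lowest in 4 of the 5, and without it the median was -0.21 with 1 of 5 higher.

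**Figure D4:**
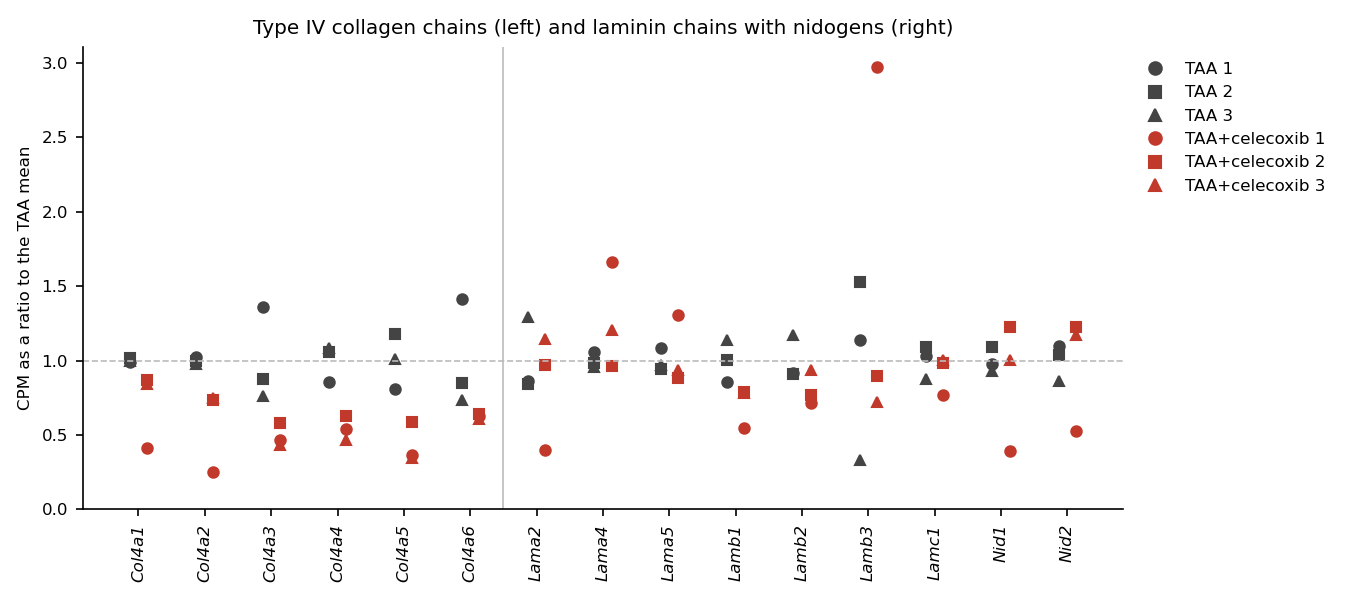
CPM of 6 type IV collagen chains and of laminin chains and nidogens in each library, as a ratio to the gene's mean in the 3 TAA libraries, with TAA in black and TAA+celecoxib in red. For each collagen chain every red marker lies below every black one, whereas laminins and nidogens overlap except Lamb1. Celecoxib 1 is lowest for Col4a1, Col4a2, Nid1 and Nid2 and highest for Lamb3. The collagen set was completed with values known, so the plot does not count how often such separation happens.

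Matrix turnover genes were lower in 9 of 11, with a median log2 of -0.32 (-0.20 without TAA 2) and 2 not overlapping. Mmp2, which digests type IV collagen and gelatin, was at 29.6, 23.2 and 21.0 CPM with TAA and at 12.8, 18.7 and 12.6 CPM with celecoxib (log2 -0.74 ± 0.23 SE). Mmp19 was at 24.6, 25.4 and 43.2 against 14.1, 18.6 and 18.3 CPM. Timp1, an inhibitor of these enzymes, was at 0.02. TGF-beta genes, which drive matrix production, were lower in 11 of 12 (median -0.30, and -0.18 without celecoxib 1), and 3 did not overlap. Ccn2, a target of TGF-beta also called connective tissue growth factor, was at 96.1, 96.6 and 151 CPM with TAA and at 75.5, 64.5 and 61.8 CPM with celecoxib (log2 -0.77 ± 0.21 SE). The receptor Tgfbr1 was at 71.9 to 80.3 against 65.1 to 66.0 CPM, and the ligand Tgfb1 overlapped at -0.14.

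Other matrix-associated genes with small p were chosen after their values were seen. Thbs4, a thrombospondin of tendon and vessel walls, was at 7.77, 16.5 and 17.0 CPM with TAA and at 1.13, 4.38 and 0.784 CPM with celecoxib (log2 -2.72 ± 0.69 SE, DESeq2 adjusted p = 0.0172), and control libraries ranged from 0.740 to 5.62 CPM. Adamts1, a protease that cleaves proteoglycans, was at 13.1 to 20.8 against 7.24 to 9.91 CPM. In both the groups did not overlap.

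In the pathway that celecoxib blocks, the target gene was hardly expressed. Ptgs2 was at 0.635, 0.816 and 1.24 CPM with TAA and at 1.64, 0.766 and 1.18 CPM with celecoxib, on 9 to 26 counts a library (log2 0.40 ± 0.45 SE), and the groups overlapped. Ptgs1 was at 47.9, 47.6 and 72.6 against 27.3, 42.2 and 36.6 CPM (log2 -0.67 ± 0.23 SE), with no overlap. Per length, in the deposited FPKM, the level of Ptgs1 was 9.47 to 26.1 and that of Ptgs2 0.144 to 0.365 over the 6 libraries. Control spleens held 29.6 to 42.0 CPM of Ptgs1 and 0.890 to 1.17 CPM of Ptgs2.

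The prostanoid pathway, cyclooxygenases included, had 17 tested genes with a median log2 of -0.13, with 11 lower, 4 separated on the lower and 1 on the higher side. The higher one was Hpgd, the dehydrogenase that inactivates prostaglandins, at 10.4, 9.25 and 9.33 CPM with TAA and 14.4, 27.0 and 17.0 CPM with celecoxib (log2 1.01 ± 0.26 SE). The lower ones were Ptgs1, Pla2g4a, the phospholipase that frees arachidonic acid (30.0 to 37.8 against 12 to 27.9 CPM), Tbxas1, thromboxane synthase (36.4 to 42.9 against 13.3 to 35.4 CPM), and Tbxa2r, the thromboxane receptor (11.9 to 12.6 against 8.37 to 11.5 CPM). In all 4 genes the lowest library was celecoxib 1, which also had the lowest macrophage genes. Without celecoxib 1 the log2 fold change was -0.50 for Ptgs1, -0.41 for Pla2g4a and -0.26 for Tbxas1. With all 6 libraries these were -0.67, -0.70 and -0.58. Ptgs1 also moved without TAA 3, to -0.43. The platelet integrin gene Itga2b was lowest in celecoxib 1 too, and a link between these values and cell content was not tested.

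The prostaglandin E2 branch did not separate. The synthase Ptges was at 0.985 to 1.90 against 0.557 to 3.53 CPM. Of the receptors, Ptger4 was at 19.6, 24.3 and 26.9 against 40.3, 26.2 and 34.2 CPM (log2 0.51 ± 0.21 SE) and overlapped through celecoxib 2, and Ptger2 was at -0.10. Lipoxygenase and leukotriene genes were lower in 6 of 9 (median -0.58, from -1.22 without celecoxib 2 to -0.27 without TAA 3), with none separated. Pla2g2a, a secreted phospholipase outside the list and chosen after its values were seen, was at 25.2 to 38.5 against 16.6 to 19.1 CPM.

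Carbonic anhydrases, which celecoxib also binds through its sulfonamide group, had a median log2 of 0.07. Car2 was at 738, 112 and 277 CPM with TAA and at 564, 1109 and 127 CPM with celecoxib, and was highest in celecoxib 2, as were 18 of 19 erythroid genes. Ca3, the 1 member that did not overlap, was at 4.80, 0.884 and 1.09 against 0.126, 0.139 and 0.0560 CPM, which is 13 to 68 counts against 1 to 2 counts. TAA 1, the library with hepatocyte transcripts, was the highest, and the other 2 TAA libraries held 13 and 21 counts.

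Folding genes of the endoplasmic reticulum were lower in 11 of 14 (median -0.24, and -0.14 without TAA 2), and 4 did not overlap. Hspa5, the chaperone BiP, was at 715, 774 and 656 CPM with TAA and at 559, 575 and 550 CPM with celecoxib (log2 -0.35 ± 0.13 SE). Sdf2l1, Hyou1 and Calr were the others, and Fkbp11, a prolyl isomerase of the same compartment named by the smallest p, was at 74.2 to 87.7 against 51.0 to 59.4 CPM. The stress factors Ddit3 and Atf4 overlapped at -0.06 and 0.35. Plasma cells are rich in this machinery, and of 7 tested plasma cell genes none was separated (median -0.10).

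**Figure D5:**
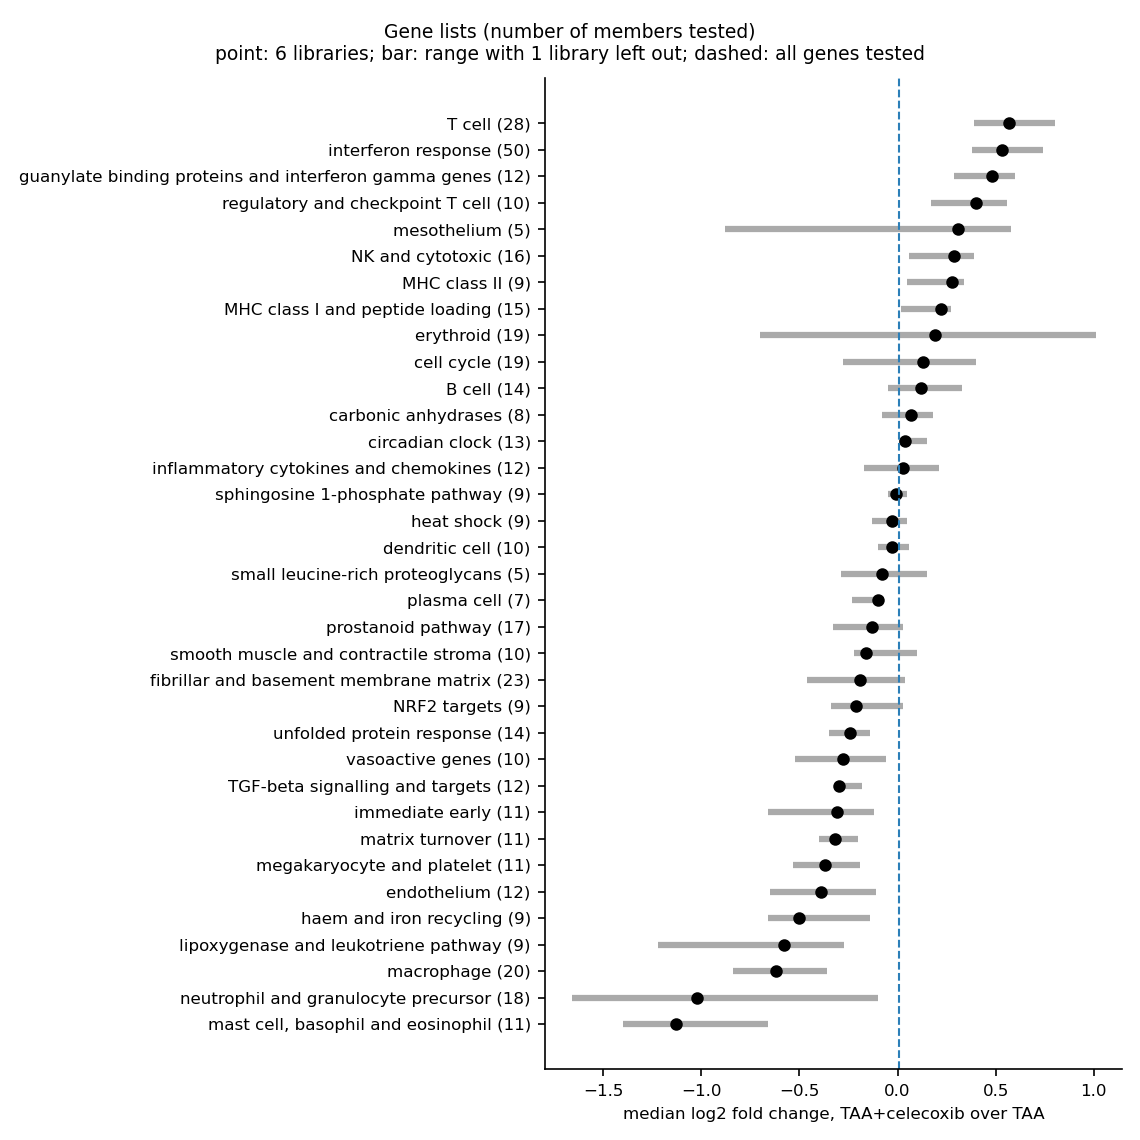
Median log2 fold change of 35 gene lists with at least 5 tested members (points, 6 libraries), with grey bars for the range when 1 library is left out and a dashed line for the median of all genes tested (0.01). The interferon and T cell medians (0.53 and 0.57) and the macrophage median (-0.62) stay on 1 side of 0 in all these fits, whereas bars such as erythroid (-0.70 to 1.01), prostanoid (-0.33 to 0.03) and matrix (-0.46 to 0.04) cross it.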

How the data were processed

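RNA from rat spleen was sequenced in 9 libraries, 3 in each of control, TAA and TAA+celecoxib, and 6 enter the comparison. The authors deposited raw counts and FPKM values per gene; FPKM served only for levels per length. Reads were aligned with HISAT2 2.0.5 to mRatBN7.2, per the submitters' processing notes, but gene ends on chromosome 1 reach 282724300, so the build of the coordinates was not settled. Which tool counted reads, and whether it used strand, is not given in the sources used here, so antisense, overlapping and near-identical genes are uncertain. Entries without a gene name (1525) held 1.43 to 1.61% of counts.

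Deposited counts were tested with edgeR 4.0.16 (quasi-likelihood, TMM, filterByExpr with a minimum count of 10 and total of 15) in R 4.3.3, with Benjamini-Hochberg adjustment over all 15386 genes at 0.05, and the scripts were tested on simulated data. The biological coefficient of variation was 0.307. Scores used log2 CPM with a prior count of 2. Alternatives were DESeq2 1.42.0, limma-voom (limma 3.58.1), other scalings, no filter, all 9 libraries, a replicate block and leaving out each library. The 39 lists held 553 entries, of which 523 matched by symbol, 12 by RefSeq synonym and 18 not, and 488 were tested. Named genes were the 15 per direction with the smallest p among named genes without overlap and with a mean of at least 1 CPM in the higher group, for each list those of smallest p or extreme fold change, and fixed genes of the drug's pathway and main cell types. Other genes named, among them members given as examples, were chosen after their values were seen. Members and lists were chosen with earlier results of these data known. Promoters are from RefSeq, build GRCr8. A few genes are not reported here or drawn in the plots, and they stay in the counts and medians of their lists.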

Additional observations from a re-analysis of the deposited data

How the results depend on the processing

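Genes called by edgeR numbered 0 under other scalings, with no filter, with all 9 libraries, with the replicate block and with each library left out, and DESeq2 called 28. Genes at an unadjusted p under 0.05 numbered 472 to 1130 with 1 library left out (1130 without celecoxib 2). Genes without overlap numbered 2709 to 4024 with 1 library left out, against 1688, where fewer libraries make overlap less likely. The matrix list median ran from -0.46 to 0.04 and the prostanoid median from -0.33 to 0.03. Same-numbered libraries had correlations of 0.144, -0.216 and 0.043 in their deviations from group means, so no pairing by number was seen. With 3 libraries in each group such values cannot exclude a shared batch or litter. With the replicate block 632 genes had an unadjusted p under 0.05. Ifit1 was at -0.64 in limma-voom and -0.13 with the replicate block, and Slc4a1 at -0.33 with the block. With 1 library left out, log2 fold changes that crossed 0 ran from -2.58 to 3.37 for Ifit1, -0.45 to 0.95 for Rsad2, -0.07 to 0.15 for Bgn, -0.29 to 0.29 for Fmod, -1.72 to 0.97 for Mpo, -1.22 to 1.01 for Slc4a1, -0.05 to 1.07 for Ptges and -0.12 to 1.61 for Car2; apart from the number of libraries, the cause was not tested. Genes at a few counts a library, such as Ptgs2, are limited by depth.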

Other observations

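Vasoactive genes, which set vessel tone, were lower in 7 of 10 tested (median log2 -0.28), and 3 did not overlap. That median was -0.06 without TAA 3 and -0.09 without celecoxib 1. Ace, the enzyme that makes angiotensin II, was at 27.7, 26.3 and 69.8 CPM with TAA and at 18.4, 17.9 and 21.6 CPM with celecoxib (log2 -1.10 ± 0.39 SE). TAA 3 was high, and the other TAA libraries lay closer to the celecoxib group. Edn1, the gene of the vasoconstrictor endothelin 1, was at 1.43 to 2.40 against 1.11 to 1.20 CPM, and Nos3, the endothelial nitric oxide synthase, overlapped (29.6 to 61.1 against 12.6 to 37.9 CPM). Endothelial genes were lowest in celecoxib 1 in 11 of 12 and highest in TAA 3 in 8.

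Circadian clock genes, which time of collection can move, had a median log2 of 0.04 with 1 of 13 separated, Tef (77.9 to 85.3 against 73.4 to 76.3 CPM). Hspa1b, an inducible heat shock protein gene, was at 5.37, 4.08 and 7.15 CPM with TAA and at 2.08, 0.835 and 2.13 CPM with celecoxib (log2 -1.71 ± 0.43 SE), whereas the heat shock list had a median of -0.03. Of the NRF2 targets, Nqo1, a quinone reductase, did not overlap (8.43 to 10.6 against 5.35 to 7.31 CPM), and Slc7a11, the cystine transporter, overlapped at 1.02 ± 0.42 (SE).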
